A study of Mus musculus with 8 samples.

Results

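Nuclear RNA of mouse embryonic stem cells labelled Mettl3 CKO, a conditional knockout, was compared with that of cells labelled Mettl3 Control. The comparison used 4 of the 8 libraries in the study, 2 of each group, chosen by their titles; the other 4 are Mettl14 Control and Mettl14 CKO, 2 each. All of these cells are of the C57BL/6 strain and were grown in serum with LIF, the GSK3 inhibitor CHIR99021 and the MEK inhibitor PD0325901, conditions that hold stem cells in an undifferentiated state. Each library came from the nuclear fraction, with ribosomal RNA removed by RiboMinus and the SMARTer Stranded Total RNA-Seq kit. The exons deleted, the source and timing of Cre and whether a group is 1 clone are not stated in the sources used here. The labels do not say whether replicates were separate cultures, and p-values therefore reflect the spread between these libraries alone, which may be technical. The libraries held 17235889 to 17909801 counted reads each, and 20765 of 54446 listed genes passed the low-count filter within these 4.

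METTL3 is the catalytic subunit of the complex that writes N6-methyladenosine (m6A) on RNA, and METTL14 is its partner, which helps hold the RNA. Reader proteins that bind the mark change how a transcript is spliced, exported and degraded, and in stem cells m6A is known for limiting the lifetime of pluripotency transcripts. The largest group of related genes described below belongs to sterol supply. When sterols run low, SCAP escorts the SREBP proteins from the endoplasmic reticulum to be cut by the proteases MBTPS1 and MBTPS2, and the released fragment switches on the genes of cholesterol synthesis and uptake, while INSIG proteins hold SCAP back when sterols are plentiful. The LXR receptors act in the other direction, and oxysterols that activate them induce the cholesterol exporters ABCA1 and ABCG1.

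The targeted gene was lower in the libraries labelled as knockout. Mettl3 (ENSMUSG00000022160.18, minus strand of chromosome 14 from 52294841 to 52305128 in mm10) had 42.7 and 40.7 CPM (counts scaled for library size) in Mettl3 Control and 21.8 and 20.3 CPM in Mettl3 CKO. Both CKO libraries lay below both Control libraries, at 50.5% of the Control mean, a log2 fold change of -0.98 ± 0.08 (SE; quasi-likelihood test of edgeR, Benjamini-Hochberg adjusted p = 9.2e-17). A count over the whole gene does not show which exons were removed, and Tox4 overlaps Mettl3 on the opposite strand. Mettl14 had 33.9 and 30.2 CPM in Control and 32.6 and 31.5 in CKO, so its groups overlapped (log2 fold change -0.0003 ± 0.08, adjusted p = 0.999).

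Across all tested genes, 3760 changed at an adjusted p under 0.05, which is 18.1% of those tested. Of these, 2238 rose (10.8%) and 1522 fell (7.33%), and the median log2 fold change of all tested genes was -0.01. Most changes were small: 39 genes rose and 492 fell by at least 2-fold. Both CKO libraries lay on the same side of both Control libraries in 11745 of the 20765 tested genes, called or not. The share of calls that rose depended on the scaling. It was 59.5% with TMM scaling and 59.0% with RLE scaling, but 37.0% with upper-quartile scaling (1373 rose and 2336 fell) and 41.8% with library size alone. These scalings moved the median of all genes by less than 0.1 on the log2 scale, to -0.06 and -0.05, so the direction of the smallest changes is not settled by these data.

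The direction also followed abundance. Among the 10370 genes called abundant here (mean log2 CPM of 3 or more), 2076 rose and 906 fell, of which 6 and 4 changed at least 2-fold. Among the 10395 less abundant genes, 162 rose and 616 fell, of which 33 and 488 changed at least 2-fold. The low-count filter asks for enough reads in only 2 libraries, so a gene with few reads can pass through the group where it is high. The 6 abundant genes with a 2-fold rise included Nsdhl, Cyp51, Fads2, Pigz and Nxt1, and the 4 with a 2-fold fall were Abca1, Nlrp4f, Scn3a and Cobl. Nxt1 and Cobl were named after their values were seen. Nsdhl and Cyp51 act in sterol synthesis and Fads2 in fatty acid desaturation, and Abca1, which fell most of the 4, is a sterol exporter.

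**Figure D1:**
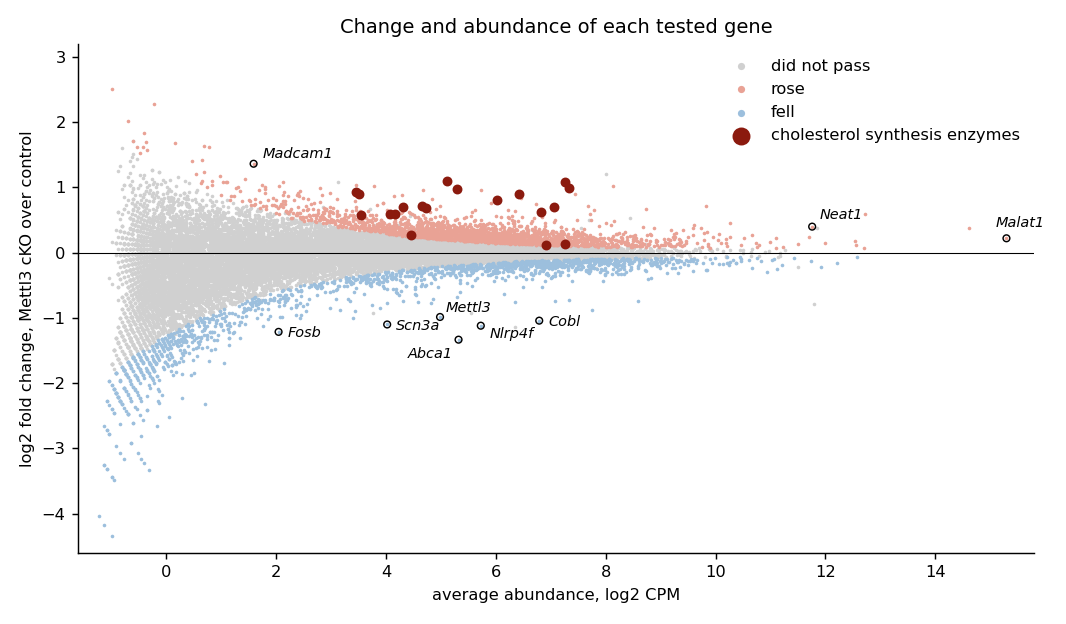
Log2 fold change of each of the 20765 tested genes (vertical axis, Mettl3 CKO over Mettl3 Control) against its average abundance in log2 CPM (horizontal axis), coloured by whether it rose, fell or did not pass the test. The 19 cholesterol synthesis enzymes marked lie above 0. Falls of more than 2-fold lie mostly among genes with few reads, with Abca1, Nlrp4f, Scn3a and Cobl to the right of them.

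All 21 of the cholesterol synthesis enzymes rose in Mettl3 CKO and 0 fell, with a median log2 fold change of 0.70 and a range of 0.12 to 1.10. Their summed level was 1445 and 1441 CPM in Control and 2277 and 2315 CPM in CKO. For comparison, 10.8% of all tested genes rose, and 2076 of the 10370 abundant ones. In each fit that left out 1 library, 18 or 19 of the 21 rose and 0 fell. Which genes were tested as a list was decided with earlier results of these data known, so the count describes the pathway and is no independent evidence of its direction.

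The early steps make mevalonate from acetyl-CoA. Hmgcs1, a synthase of these steps, had 115 CPM in each Control library and 127 and 123 in CKO. It rose the least of the pathway (0.12 ± 0.04, SE; edgeR's adjusted p = 0.038), and its call was lost without any 1 of the 4 libraries (adjusted p = 0.0617 to 0.268) and in upper-quartile scaling (0.353; range over all alternatives 0.00101 to 0.353). Acat2, the thiolase that condenses acetyl-CoA, rose by 0.59 and the mevalonate kinases and decarboxylase Mvk, Pmvk and Mvd by 0.70, 0.68 and 0.89. The isoprenoid steps that follow rose as well, with Idi1 at 0.59, Fdps at 0.93 and Fdft1, the squalene synthase gene, at 0.62.

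The later steps turn squalene into cholesterol and held the largest rises. Cyp51 (ENSMUSG00000001467.5, chromosome 5, minus strand, 4081145 to 4104746), a demethylase of lanosterol, had 99.7 and 96.5 CPM in Control and 203 and 211 CPM in CKO. It was 2.11-fold higher (log2 fold change 1.08 ± 0.04, SE; edgeR's adjusted p = 8.4e-35), although Akap9 overlaps it on the opposite strand. Nsdhl, a sterol dehydrogenase gene on chromosome X, went from 20.995 and 22.735 CPM to 46.4 and 47.5 CPM (1.10 ± 0.08, adjusted p = 6.2e-20). In both genes the CKO libraries lay close together and well above Control. Msmo1 rose by 0.99, Dhcr7, the last reductase of one branch, by 0.98, Lss, the cyclase that forms lanosterol, by 0.91 and Sc5d by 0.81. Sqle, the epoxidase of squalene, rose by 0.70 (from 102 and 101 to 162 and 166 CPM). Hsd17b7 rose by 0.72. Smaller rises were those of Tm7sf2 (0.58), Ebp (0.27 ± 0.09) and Lbr (0.14 ± 0.04). Ebp lost its call without any 1 of the 4 libraries (adjusted p = 0.0705 to 0.204) and Lbr without Mettl3 Control replicate 1 (0.0567) or Mettl3 CKO replicate 1 (0.153); over all alternatives their adjusted p ran from 0.00619 to 0.204 and from 2.5e-05 to 0.153.

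**Figure D2:**
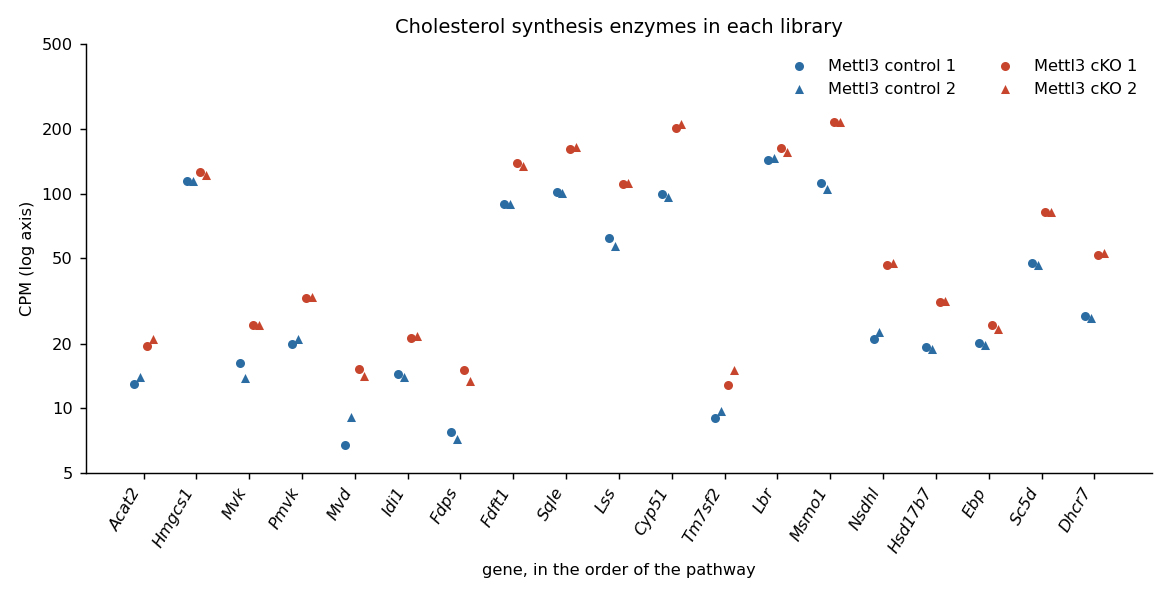
CPM on a log axis of 19 of the 21 cholesterol synthesis enzymes in the 4 libraries (blue, Mettl3 Control; red, Mettl3 CKO; circles, replicate 1; triangles, replicate 2). In each gene both CKO libraries lie above both Control libraries, with the narrowest gaps at Hmgcs1 and Lbr. The same order was found in 4499 of the 10370 abundant genes.

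The sequences just upstream of the start are shown for 3 of these enzymes and for Abca1, which fell, so that promoters of genes with large, small and opposite changes can be read side by side. Mvd and Sc5d had the largest rises among the 6 enzymes, of 14 with 1 promoter entry, whose upstream stretch holds no exon annotated in GENCODE M21, and Hmgcs1 the smallest of all 21. Each stretch has 160 bases, from RefSeq in GRCm38.p6, written 5′ to 3′ on the strand of the gene and ending at the RefSeq start. Capitals mark CCAAT on either strand (read as ATTGG on the other), the box bound by NF-Y, and TCACNCCAC, a core of the element that SREBP binds.
Mvd, chr8:122443423-122443582, minus strand: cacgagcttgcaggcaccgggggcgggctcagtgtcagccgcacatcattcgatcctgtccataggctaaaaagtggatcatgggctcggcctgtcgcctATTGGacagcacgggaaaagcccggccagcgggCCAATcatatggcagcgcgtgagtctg
Sc5d, chr9:42264301-42264460, minus strand: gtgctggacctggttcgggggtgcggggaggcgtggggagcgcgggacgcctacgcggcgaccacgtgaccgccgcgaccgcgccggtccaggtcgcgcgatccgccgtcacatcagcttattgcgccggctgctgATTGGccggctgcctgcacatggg
Hmgcs1, chr13:119690191-119690350, plus strand: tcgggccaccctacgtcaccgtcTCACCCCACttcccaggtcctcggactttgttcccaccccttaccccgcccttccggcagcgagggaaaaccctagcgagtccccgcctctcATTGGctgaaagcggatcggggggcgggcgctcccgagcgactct
Abca1, chr4:53159896-53160055, minus strand: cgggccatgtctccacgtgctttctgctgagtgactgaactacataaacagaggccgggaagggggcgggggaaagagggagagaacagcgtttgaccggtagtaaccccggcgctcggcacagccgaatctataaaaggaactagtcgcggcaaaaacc
The stretch of Mvd holds CCAAT 2 times and that of Sc5d 1 time. That of Hmgcs1 holds both motifs 1 time each, and that of Abca1 holds neither. Windows ran from 250 bases before to 50 after the start, and a gene counted if any of its windows matched. CCAAT was found in 15 of the 16 cholesterol enzymes with an entry (93.8%). The shares were 43.5% of abundant protein-coding genes with a window and 41.1% of all 27025 genes with a window. In the other lipid lists they were 69.2% (9 of 13) for the regulators and uptake genes, 68.8% (11 of 16) for fatty acid synthesis and 46.2% (6 of 13) for sterol efflux and LXR targets. TCACNCCAC was found in 1 of 16 cholesterol enzymes (6.25%) and 1.44% of all genes with a window. The GC box GGGCGG was found in 15 of 16 (93.8%) against 72.7% of abundant genes, and the E-box CACGTG in 3 of 16 (18.8%) against 12.6%. These motifs were kept from a longer set after their matches were seen, and a match describes letters only.

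Regulators of the SREBP pathway and genes of sterol uptake or transport rose in 13 of 18 cases and fell in 0, with a median of 0.29. Insig1, an SREBP target whose product holds SCAP in the endoplasmic reticulum, had 35.0 and 37.8 CPM in Control and 69.1 and 71.9 CPM in CKO, a rise of 0.95 ± 0.06 (SE, edgeR's adjusted p = 3e-21). Stard4, a sterol carrier gene that is also an SREBP target, went from 18.7 and 22.4 to 34.2 and 38.5 CPM (0.82). In both genes the groups did not overlap, and both CKO libraries lay above both Control libraries in 4499 of the 10370 abundant genes. Among the SREBP genes themselves, Srebf2, the one that mainly serves cholesterol, rose by 0.50 ± 0.04 (from 142 and 154 to 204 and 214 CPM). Srebf1, which mainly serves fatty acids, had 91.0 and 90.4 CPM in Control and 101 and 108 in CKO (0.20 ± 0.05, adjusted p = 0.00094). The call of Srebf1 did not hold without Mettl3 CKO replicate 2 (adjusted p = 0.0756) and with GC content taken into account (0.135; range over all alternatives 6.2e-06 to 0.135). Scap rose by 0.18, while the SREBP proteases did not pass (Mbtps1 0.08, adjusted p = 0.12; Mbtps2 0.07, adjusted p = 0.54), nor did Insig2 (0.13) or Vldlr (0.09). Genes of lysosomal sterol export and storage rose by small amounts, with Npc2 at 0.33, Npc1 at 0.17 and Soat1, which esterifies cholesterol, at 0.19. Scap, Npc1 and Soat1 lost their calls with upper-quartile scaling (edgeR's adjusted p = 0.0676, 0.0823 and 0.0711). They also lost them in DESeq2 (its adjusted p = 0.0757, 0.0735 and 0.0874). Scap was not called without Mettl3 CKO replicate 2 (adjusted p = 0.0875) or with GC content taken into account (0.258), Npc1 without Mettl3 Control replicate 1 (0.135), and Soat1 without Mettl3 Control replicate 1 (0.0699) or Mettl3 CKO replicate 1 (0.0728).

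Fatty acid synthesis and desaturation followed with 13 of 19 genes that rose and 1 that fell (median 0.29). The desaturases led: Fads2 had 23.4 and 20.7 CPM in Control and 45.4 and 49.1 CPM in CKO, a rise of 1.10 ± 0.08 (SE, edgeR's adjusted p = 1.5e-19). Scd1 went from 121 CPM in each Control library to 226 and 229 CPM (0.91 ± 0.04), and Fads1 and Scd2 rose by 0.77 and 0.71. Fatty acid synthase, Fasn, had 727 and 757 CPM in Control and 971 and 966 CPM in CKO, a rise of 0.38 ± 0.03. Mid1ip1 rose by 0.51, a call that was lost in DESeq2 (its adjusted p = 0.0939). Genes that supply the substrates of Fasn also rose, with the citrate carrier Slc25a1 at 0.40, Acly at 0.29 and Acaca, the cytosolic acetyl-CoA carboxylase gene, at 0.27. Its mitochondrial counterpart Acacb, known for the control of fatty acid oxidation, was the member that fell, from 49.0 and 46.3 to 28.03 and 31.66 CPM (-0.68 ± 0.07, adjusted p = 1.1e-11). The calls of Mid1ip1 and the elongase gene Elovl6 (0.12) were lost without Mettl3 CKO replicate 1 (adjusted p = 0.0528 and 0.0752), and that of Mid1ip1 also without Mettl3 Control replicate 2 (0.146). Acss2, Acsl1, Elovl5, Gpam and Elovl1 did not pass (log2 fold changes -0.22, -0.02, -0.01, 0.02 and 0.22).

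Sterol efflux and LXR targets did not move as a group: 2 of the 16 tested genes rose and 2 fell, near the 10.8% and 7.33% of all tested genes. Abcg5 and Abcg8 of this list did not pass the low-count filter. The median of 0.06 turned to -0.004 with upper-quartile scaling and with GC content taken into account. The 2 genes that fell were those of the exporters ABCA1 and ABCG1. Abcg4 of this list was not called, and its groups overlapped at low levels (-0.55 ± 0.47, SE, edgeR's adjusted p = 0.48). Abca1 (ENSMUSG00000015243.4, chromosome 4, minus strand, 53030787 to 53159895) had 55.7 and 57.9 CPM in Control and 20.7 and 24.4 CPM in CKO. It was at 39.7% of Control, the lowest log2 fold change among the named genes of the 4 lipid lists (-1.33 ± 0.07, SE; edgeR's adjusted p = 6.4e-25). Abcg1, which passes cholesterol to high-density lipoprotein, had 3.268 and 3.199 CPM in Control and 1.46 and 1.52 in CKO (-1.11 ± 0.29, adjusted p = 0.0031). Apoe, another LXR target and an abundant one, had 1056 and 992 CPM in Control and 1073 and 1049 in CKO, so its groups overlapped (0.05 ± 0.03, adjusted p = 0.19). The LXR genes Nr1h2 and Nr1h3 did not pass (0.12 and 0.35), nor did Mylip, Pltp or Lpcat3 (0.02, 0.18 and 0.06). Arl4c rose by 0.36 ± 0.07. Rxra, the partner receptor of LXR, rose by 0.27 ± 0.10, a call that was lost without Mettl3 Control replicate 2 (adjusted p = 0.293) or Mettl3 CKO replicate 2 (0.288) and with GC content taken into account (0.147; range over all alternatives 0.0101 to 0.293).

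**Figure D3:**
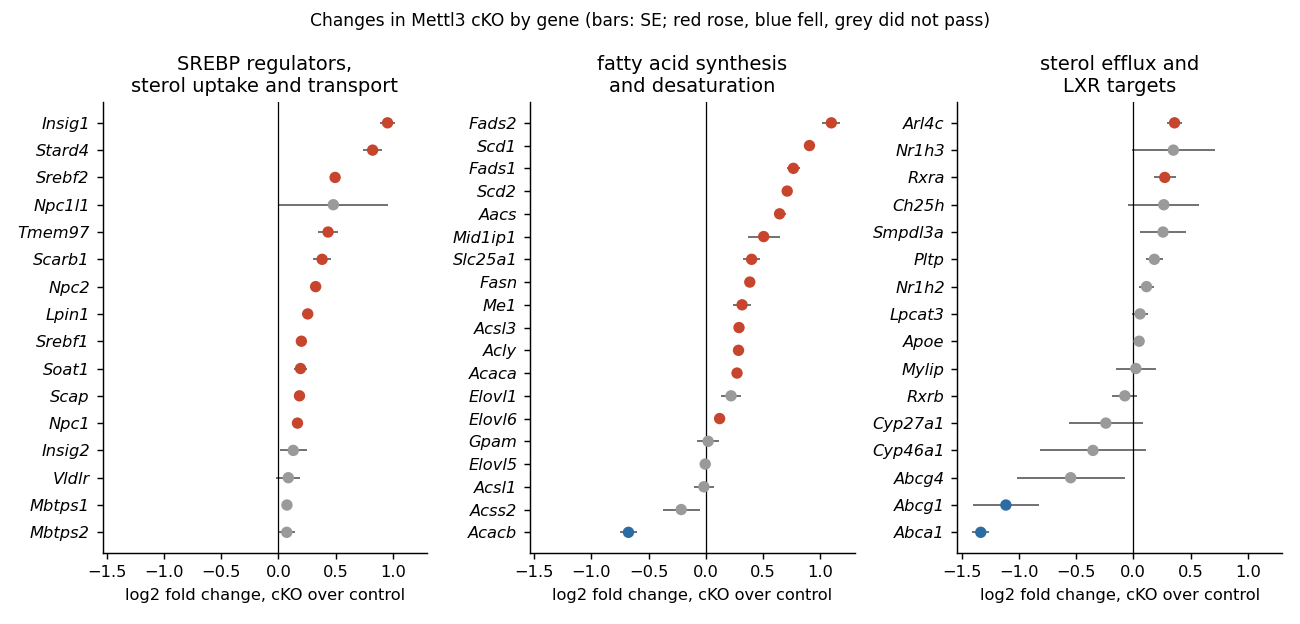
Log2 fold change with its SE for tested members of 3 lipid gene lists, ordered by size within a panel; red points rose, blue fell and grey did not pass. Fads2 lies above 1, and Abca1 and Abcg1 lie below -1 while the other LXR targets lie nearer 0.

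Markers of pluripotent stem cells were present in all 4 libraries. Core pluripotency genes summed to 2837 and 2793 CPM in Control and 2615 and 2610 CPM in CKO; 2 of 13 rose and 5 fell, against 10.8% and 7.33% of all tested genes and 2076 and 906 of the 10370 abundant ones. Without Mettl3 CKO replicate 2, 1 rose and 3 fell. Pou5f1, the gene of OCT4, had 91.9 and 87.8 CPM in Control and 116 and 113 CPM in CKO (0.35 ± 0.05, SE; edgeR's adjusted p = 7.2e-09). Nanog moved the other way, from 115 and 114 to 84.7 and 89.3 CPM (-0.40 ± 0.05, adjusted p = 1.2e-10), and Sox2, named after its values were seen, overlapped between groups (-0.01 ± 0.07). In naive pluripotency 0 of 20 genes rose and 9 fell, among them Fbxo15 (-0.42), Dppa5a (-0.37) and Fgf4 (-0.36), the growth factor that drives exit from the naive state. Leaving out 1 library gave 5 to 7 falls, 5 without Mettl3 CKO replicate 2. Of the formative and primed epiblast genes 2 of 17 rose and 5 fell, with the new DNA methyltransferase gene Dnmt3b at -0.24; leaving out 1 library gave 2 or 3 falls. Otx2, the factor that opens this state, was named after its values were seen and had 3.545 and 3.199 CPM in Control and 1.87 and 1.81 in CKO (-0.87 ± 0.27). Its call was lost without Mettl3 Control replicate 1 (adjusted p = 0.11), Mettl3 CKO replicate 1 (0.0661) or 2 (0.0853; range over all alternatives 0.0056 to 0.11).

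Markers of other cell types were also read. Their counts can be set beside 10.8% of all tested genes that rose and 7.33% that fell. Among the 10370 abundant genes, 2076 rose and 906 fell. Fibroblast markers were high in all 4 libraries, at 17900 and 17420 CPM summed over 25 genes in Control and 19600 and 19310 CPM in CKO, with none at 0. Of the 24 tested, 11 rose, 2 fell and 11 did not pass (median 0.07, range -1.16 to 0.78). The 3 with the smallest p were all rises, the collagen gene Col1a1 (0.25 ± 0.02), Fbln2 (0.30) and Pdgfrb (0.45). With upper-quartile scaling, and with GC content taken into account, 8 rose and 2 fell. Primitive endoderm markers summed to 4664 and 4633 CPM in Control and 4798 and 4746 in CKO. Of 17 tested, 4 rose, a share near that of abundant genes, and 4 fell. Without Mettl3 CKO replicate 1, 2 rose and 1 fell; without Mettl3 Control replicate 2, 2 rose and 3 fell; and 2 fell without Mettl3 Control replicate 1 or Mettl3 CKO replicate 2. The laminin gene Lama1 fell from 102 and 103 to 60.8 and 59.8 CPM (-0.76 ± 0.05), while Sparc (0.15 ± 0.02) and the collagen gene Col4a2 (0.23 ± 0.03) rose. In bulk libraries more cells of a type and more RNA per cell cannot be told apart, and the part of these markers in the lipid result was not tested. Trophectoderm markers had 5 rises and 0 falls among 15 genes, among them the keratin gene Krt8 (0.19), but 0 rose without Mettl3 Control replicate 2 or without Mettl3 CKO replicate 1, and Krt8 also lost its call with GC content taken into account (adjusted p = 0.056). Mesoderm markers had 3 rises and 0 falls among 11 (1 or 2 rose when 1 library was left out, 1 fell in 1 such fit), with sums of 26.42 and 27.99 CPM in Control and 33.6 and 30.5 in CKO. Of 18 neuroectoderm and neuronal markers 2 rose, a share near that of all tested genes, and 3 fell. The sodium channel gene Scn3a fell by 1.10 ± 0.11 (22.1 and 21.6 to 9.60 and 10.8 CPM), and Map2 rose by 0.30 ± 0.05. Blood cell markers did not pass in any of 5 cases, with sums of 28.03 to 30.68 CPM.

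Many genes of the lysosome rose and many of DNA replication fell, while 9 of 29 and 11 of 28 did not pass the test. Among all tested genes 10.8% rose and 7.33% fell, and among abundant ones 2076 and 906 of 10370 (8.74% fell). Of 29 lysosome genes and targets of TFEB, the factor that drives them, 20 rose and 0 fell, with a median of 0.17 against -0.01 over all genes. Sqstm1, an autophagy receptor gene, had 213 and 220 CPM in Control and 300 and 293 CPM in CKO (0.45 ± 0.03, SE; edgeR's adjusted p = 2.6e-18), Grn rose by 0.37 and the protease gene Ctsl by 0.24. The count was 14 to 17 when 1 library was left out, lowest without Mettl3 CKO replicate 2, where 1 fell, and 12 with upper-quartile scaling. In the same libraries 11 of 24 fibroblast markers rose, and their part in this result was not tested. Of 28 genes of proliferation and DNA replication, 0 rose and 17 fell (median -0.17), including the helicase subunits Mcm7 and Mcm2 (both -0.33) and Top2a, which went from 719 and 699 to 563 and 576 CPM (-0.32 ± 0.03, adjusted p = 5.5e-15). Without 1 library, 13 to 16 fell. Of 27 chromatin repressors of H3K9 and DNA methylation 13 fell and 3 rose; the falls included Dnmt1 (-0.26), its partner Uhrf1 (-0.25) and Hells (-0.26). The falls numbered 6 without Mettl3 CKO replicate 2, 7 without Mettl3 CKO replicate 1, and 9 and 11 without Mettl3 Control replicates 1 and 2.

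Immediate-early and AP-1 genes split. Of 22 tested, 10 rose and 4 fell (2 fell without Mettl3 CKO replicate 2, and 7 rose and 1 fell in DESeq2). Fosb had 5.54 and 5.60 CPM in Control and 2.52 and 2.28 CPM in CKO (-1.21 ± 0.22, SE; edgeR's adjusted p = 2.3e-05), and Fos, named after its values were seen, went from 13.7 and 14.1 to 8.66 and 6.19 CPM (-0.90 ± 0.14). In contrast, the AP-1 partners Jund (0.41) and Fosl2 (0.44) rose, as did Ccn2 (0.21). Of the 10 mRNAs tested from mitochondrial DNA 5 rose and 0 fell, among them mt-Nd4 (0.51), mt-Nd1 (0.45) and mt-Nd2 (0.42), subunits of respiratory complex I. Leaving out 1 library gave 6 or 7 rises. Their sum was 5857 and 6200 CPM in Control and 7605 and 8131 in CKO. How much RNA from outside the nucleus each fraction held was not measured, and its part in this result was not tested. Of 27 long noncoding RNAs that stay in the nucleus 6 rose and 3 fell, shares near those of abundant genes. With upper-quartile scaling 5 rose and 6 fell. Named by smallest p, the paraspeckle RNA Neat1 rose by 0.40 ± 0.02, Rn7sk by 0.27 and Malat1 by 0.22. Malat1 alone had 37569 and 36727 CPM in Control and 43670 and 42943 in CKO.

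The genes of the m6A machinery moved by small amounts apart from Mettl3. The counts in this paragraph stand against 10.8% of all tested genes that rose and 7.33% that fell, and 2076 and 906 of the 10370 abundant ones. Of 12 genes for the writer complex and other RNA adenosine methyltransferases, 3 rose and 1, Mettl3, fell; Wtap, the subunit that places the complex in nuclear speckles, rose by 0.22 ± 0.04, and Rbm15b by 0.18, a call lost without Mettl3 Control replicate 1 (adjusted p = 0.147) or Mettl3 CKO replicate 1 (0.196) and with GC content taken into account (0.16). In either of those fits without 1 library, 1 of the 12 rose. Among 15 readers and demethylases 5 rose and 5 fell, including rises of the demethylase gene Alkbh5 (0.40) and the cytoplasmic reader genes Ythdf2 (0.28) and Prrc2a (0.20). The call of Prrc2a was lost with GC content taken into account (adjusted p = 0.187; range over all alternatives 7.84e-11 to 0.187). The medians of both lists (0.02 and 0.01) turned negative with upper-quartile scaling and with library size alone. In the ATF4 and unfolded protein response 12 of 27 rose and 2 fell, with the amino acid carrier genes Slc7a5 (0.53) and Slc3a2 (0.27) higher and Asns lower (-0.23); 7 rose without Mettl3 CKO replicate 1 and 7 with upper-quartile scaling. Of p53 targets 10 of 29 rose and 3 fell, including Ccnd2 (0.32) and Cdkn1a (0.24); 6 or 7 rose when 1 library was left out, fewer than 10 without any of the 4. Polycomb components had 9 rises and 7 falls among 34 (5 or 6 and 2 to 5 when 1 library was left out), with Epop at 0.49; the share of rises was near that of abundant genes. The nuclear exosome and its partners had 0 rises and 7 falls among 28 genes, among them Srrt (-0.25) and Mtrex (-0.22). Falls numbered 4 without Mettl3 Control replicate 1 or Mettl3 CKO replicate 2 and 3 in DESeq2, and the fit of all 8 libraries gave 3 rises and 3 falls. In the remaining lists the counts were as follows. Of 37 imprinted genes 10 rose and 4 fell, with Gnas at 0.39 and Peg10 at 0.38. Glycolysis and hypoxia had 4 rises and 0 falls among 23 genes, with Pfkl at 0.35. Interferon response genes numbered 31, with 2 rises and 0 falls; 0 rose without Mettl3 Control replicate 2, without Mettl3 CKO replicate 2 or in DESeq2. Ribosomal protein mRNAs had 11 rises and 11 falls among 82, but 8 and 28 with upper-quartile scaling, 11 and 5 without Mettl3 Control replicate 1, and 11 and 4 without Mettl3 CKO replicate 2. Histone genes had 2 and 2 among 58. Germline genes had 0 rises and 3 falls among 22. Oocyte genes had 1 rise and 2 falls among 13, of which Nlrp4f fell from 74.2 and 69.9 to 32.7 and 33.6 CPM, and the 2-cell-like state had 1 rise and 2 falls among 4, with 0 falls without Mettl3 Control replicate 1 or Mettl3 CKO replicate 2. Of 200 small nucleolar RNAs 8 rose and 1 fell, but 59 rose without Mettl3 Control replicate 2, and 3 rose and 5 fell without Mettl3 Control replicate 1. Mettl3 Control replicates 1 and 2 held 3198 and 3932 CPM of them, and the CKO libraries 3877 and 3927.

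The ranking here covers called genes with groups apart and a mean log2 CPM of 1 or more. Predicted genes, genes named by clone and pseudogenes were left out of it. The most changed of the ranked genes, outside the lipid lists, were mostly of low level. The highest rise was that of Madcam1, an adhesion molecule of vessel walls, with 1.66 and 1.60 CPM in Control and 4.21 CPM in each CKO library (1.36 ± 0.26, SE; edgeR's adjusted p = 5.3e-05). Gpr63, Bmp2 and Syt7 (1.08 each) and Bmyc (1.04) also rose, all at 2.49 CPM or less in Control. Pigz, a mannosyltransferase gene of GPI anchors, rose by 1.04 ± 0.13, from 7.42 and 6.80 to 15.3 and 13.8 CPM. The calls of Gpr63, Bmp2, Syt7 and Bmyc were lost without Mettl3 CKO replicate 2 (adjusted p = 0.175, 0.064, 0.205 and 0.0645), and those of Gpr63, Bmp2 and Syt7 also without Mettl3 Control replicate 2 (0.093, 0.0804 and 0.0663). The lowest, after Abca1, were Myh7, Ccdc7a and Abcc2 (-1.31 each), Loxhd1 (-1.23), Fosb, Cfap54 (-1.19), Abcc9 and Kif28 (-1.17 each) and Cfap44 (-1.12). Apart from Abca1, Fosb and Cfap44 these had at most 3.83 CPM in either Control library. The calls of Ccdc7a, Cfap54, Abcc9 and Kif28 were lost without Mettl3 CKO replicate 2 (adjusted p = 0.13, 0.126, 0.0784 and 0.0792). Those of Cfap54 and Abcc9 were also lost without Mettl3 Control replicate 2 (0.115 and 0.0538), and that of Kif28 without Mettl3 Control replicate 1 (0.122).

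Falls of such low genes went along with fewer reads over receptor genes that are silent in most tissues. The 1731 olfactory and vomeronasal receptor genes together had 486.3 and 494.1 CPM in Control and 284.3 and 271.2 CPM in CKO, 56.7% of Control. Of these, 196 passed the low-count filter and are among the tested genes. Whether any are expressed in these cells was not tested. Both CKO libraries also listed fewer genes with a count, 37422 and 37408 against 40682 and 40752. Over the lowest eighth of tested genes by abundance the median log2 fold change was -0.47, and 260 genes fell and 10 rose. All of these calls were of at least 2-fold. The low-count filter asks for enough reads in only 2 libraries, so the lowest genes can be tested through the group where they are high. The counts of that eighth therefore cannot show how low genes behave as a class. Over the highest eighth the median was 0.02, and 485 fell and 721 rose. The 492 genes that fell at least 2-fold had a median of 1.15 CPM in Control. The receptor genes' reads per kilobase of exon, applied to each gene's exons, would make up a median of 26.0% of that level. This share grows as a gene's level falls. Its median was 21.3% over all tested genes with a mean log2 CPM below 1. It was 16.3% for the genes that rose at least 2-fold and 1.08% for the abundant genes. For Abca1 this share was 1.58% and for Abcg1 19.6%; with it subtracted from each group's mean, their log2 fold changes were -1.34 and -1.20. For Cfap54 the share was 47.4%, and for Abcc2, Abcc9, Loxhd1 and Myh7 it was 21.7 to 25.5%. The part of such reads in these falls was not tested.

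**Figure D4:**
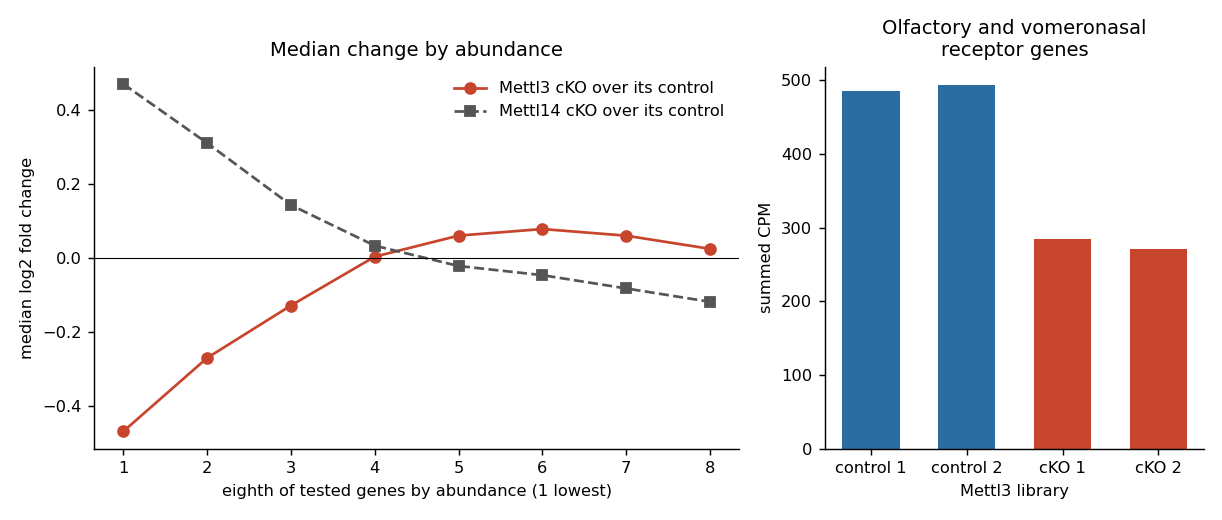
Left, median log2 fold change in each eighth of tested genes by abundance, for Mettl3 CKO over its Control (red) and Mettl14 CKO over its own Control (grey); right, summed CPM of the 1731 receptor genes in each Mettl3 library, from 0. The Mettl3 line runs from -0.47 to 0.08 and the Mettl14 line from 0.47 to -0.12, and the receptor sums are 486.3 and 494.1 CPM in Control and 284.3 and 271.2 in CKO.

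The direction of small changes also went with base composition. Of 9770 abundant protein-coding genes, the 2443 with the highest GC content of their exons (54.02 to 68.96%) had 718 rises and 102 falls and a median of 0.12. The 2443 with the lowest GC content had 310 rises and 298 falls and a median of 0.01. GC content of the cholesterol enzymes had a median of 48.7%. With the trend over GC content removed in each library, an alternative added after the data were seen, all 21 cholesterol enzymes still rose, with a median of 0.71. The count of lysosome genes that rose was then 17, and 13 proliferation genes fell and 1 rose.

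The Mettl14 knockout, which shares no Control library with this comparison, was used to ask which changes differed between the lines. The change in Mettl3 CKO minus that in Mettl14 CKO passed the test for 7238 of 21782 genes (33.2%) in a fit of all 8 libraries, higher in Mettl3 for 4461 and lower for 2777. In cholesterol synthesis 21 of 21 genes rose in either knockout, with medians of 0.70 in Mettl3 CKO (4-library fit) and 0.87 in Mettl14 CKO (8-library fit). The difference passed for 9 of the 21, 8 of them with the smaller rise in Mettl3 CKO. For Hmgcs1 the difference was -0.35 ± 0.05 (SE, edgeR's adjusted p = 9.9e-09) on the log2 scale. The SREBP genes differed in opposite directions, Srebf1 at -0.73 ± 0.07 and Srebf2 at 0.21 ± 0.05. Fasn (-0.48) and Npc1 (-0.41) rose less in Mettl3 CKO, and Scd1 rose more (0.45 ± 0.05). Acacb fell in both, by less in Mettl3 CKO (difference 0.62 ± 0.10). Abca1 fell in Mettl3 CKO and rose in Mettl14 CKO (0.25, adjusted p = 2.8e-05), a difference of -1.55 ± 0.09 (adjusted p = 3.4e-35). For Abcg1 the difference was -0.89 ± 0.40 and missed the threshold (adjusted p = 0.079). Apoe rose in Mettl14 CKO by 0.79, and its difference was -0.70 ± 0.03. Pou5f1 rose in Mettl3 CKO and fell in Mettl14 CKO (-1.22), and mt-Nd1 did the same (-1.13 in Mettl14 CKO), while for Nanog, which fell in both, the difference did not pass (0.07 ± 0.06, adjusted p = 0.38). Low-abundance genes moved in the other direction in the Mettl14 line, with a median of 0.47 in the lowest eighth, so differences of genes with few reads carry that contrast as well.

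**Figure D5:**
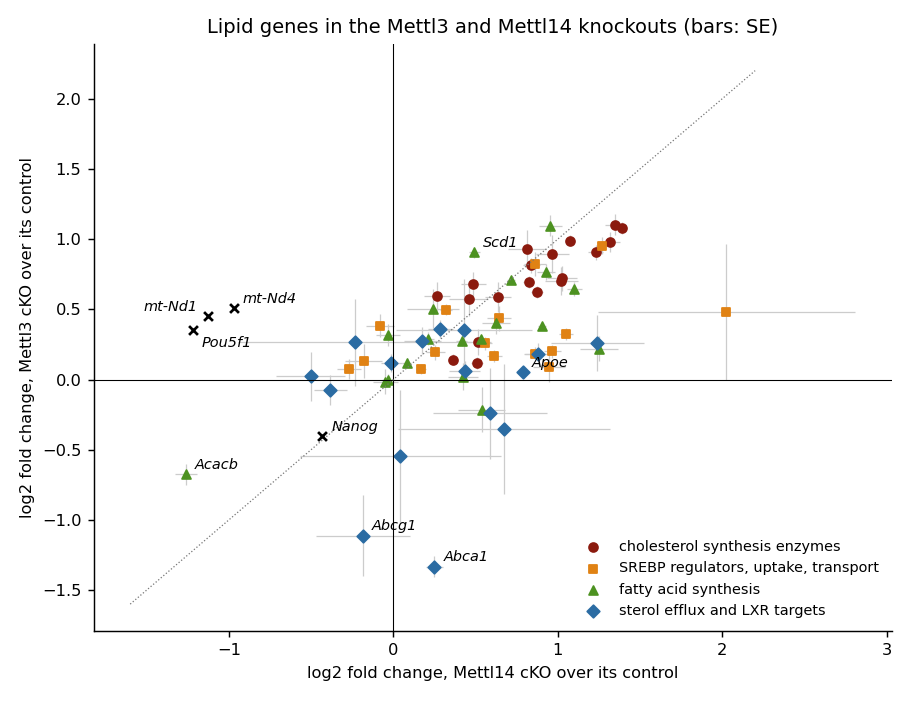
Log2 fold change in Mettl3 CKO (vertical axis) against that in Mettl14 CKO (horizontal axis), each over its own Control, for tested members of the 4 lipid lists and 4 other genes (crosses), with SE bars and a dotted line of equal change. Cholesterol enzymes lie in the upper right, Abca1 lies below 0 on the vertical axis and above 0 on the horizontal one, and Pou5f1 and mt-Nd1 lie in the upper left.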

How the data were processed

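Nuclear RNA was sequenced in 8 libraries, of which the 4 of the Mettl3 line were compared and the 4 of the Mettl14 line served for the difference between lines. The deposited files hold raw read counts per gene, made by the authors with CASAVA, Trimmomatic 0.38, HISAT2 2.1.0 and HTSeq on mm10, per the submitters' processing notes; the sources used here do not give the annotation or the strand setting. Gene models were taken from GENCODE M21, which lacked 37 of the deposited identifiers. Groups came from the sample titles. Genes were filtered with filterByExpr (minimum count 10), scaled by TMM and tested with edgeR 4.0.16 (R 4.3.3), quasi-likelihood with robust estimation and Benjamini-Hochberg adjustment over all 20765 genes; 2 residual degrees of freedom per gene were supplemented by a prior of 69. A change was called at an adjusted p under 0.05. The Mettl14 changes and the difference between lines came from 1 fit of all 8 libraries (21782 genes). Its median of all genes for Mettl3 was 0.03, against -0.01 in the 4-library fit, so differences are not exact subtractions of the values printed. Replicates differed by more than sampling noise (chi-square per degree of freedom 2.08 and 1.74). The members and gene lists were chosen with earlier results of these data known. Named genes are Mettl3, Mettl14, the 3 smallest p of each of 34 lists and all members of the 4 lipid lists. The 10 highest and 10 lowest called changes at an average log2 CPM of at least 1 with groups apart were also named. Predicted genes, genes named by clone and pseudogenes were left out of these 10 highest and 10 lowest. Scaling, filter, DESeq2 1.42.0, limma-voom (limma 3.58.1), the 8-library fit, a replicate block and leaving out each library were the alternatives. Removal of the GC trend (20 bins) and subtraction of the receptor-gene read density were added after seeing the data. The counts cover all members of a list, some of which are not reported here by name or shown in the figures. The scripts were tested on simulated data.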

Additional observations from a re-analysis of the deposited data

Results flagged for a closer look

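The following genes are listed because the change in Mettl3 CKO minus the change in Mettl14 CKO passed edgeR's test in the 8-library fit. They are the rule-named genes called in opposite directions in the 2 lines with a difference of at least 1 on the log2 scale, and the lipid genes whose difference is given above. Among lipid genes the difference was -1.55 for Abca1, -0.73 for Srebf1, -0.70 for Apoe, -0.48 for Fasn, -0.41 for Npc1 and -0.35 for Hmgcs1. It was 0.21 for Srebf2, 0.45 for Scd1 and 0.62 for Acacb. Genes higher in Mettl3 CKO relative to Mettl14 CKO were the pluripotency factor gene Pou5f1 (1.61), the mitochondrial mRNAs mt-Nd1 (1.62), mt-Nd2 (1.55) and mt-Nd4 (1.52), the m6A eraser gene Alkbh5 (1.08), Prrc2a (1.50), the Polycomb-associated gene Epop (1.53), the lysosomal gene Grn (1.20), the trophectoderm factor gene Gata3 (1.05) and Bmyc (2.25). Abcc2 (-2.32) and Abcc9 (-2.66) were lower, each at 3.83 CPM or less in the Mettl3 Control libraries. Reads at the density of the receptor genes would make up 21.7% and 25.5% of their Control means. The call of Gata3 in Mettl3 CKO was lost without Mettl3 Control replicate 2 (adjusted p = 0.371) or Mettl3 CKO replicate 1 (0.155).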

How the results depend on the processing

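DESeq2 called 1458 genes against 3760, 1017 higher and 441 lower, with 7 and 5 past 2-fold, and 4575 differences between lines; 10065 of its adjusted p were NA, and 1453 of its calls were among the 3760. Upper-quartile scaling gave 1373 rises and 2336 falls. Without a low-count filter 1007 genes fell, and rises were 74.3% of calls; with a minimum count of 50 rises were 51.1% of calls, and 6 genes rose and 23 fell at least 2-fold. Leaving out 1 library gave 2646 to 2876 calls, 1551 to 1829 rises, 914 to 1095 falls, 40 to 72 rises and 170 to 428 falls of at least 2-fold, and 6045 to 6683 differences. Falls numbered 914 without Mettl3 Control replicate 1; falls of 2-fold numbered 170 and 189 without Mettl3 Control replicates 1 and 2, and rises of 2-fold 72 without Mettl3 Control replicate 2. The cause of these shifts was not tested. Same-numbered replicates did not deviate together (correlation 0.0242 over only 2 pairs); the replicate block gave 3990 calls, 2374 higher and 1616 lower, 43 and 466 past 2-fold, and 7172 differences. Apoe, not called, turned to -0.088 when the GC trend was removed (adjusted p = 0.0144). Of 159 called named genes, 42 lost the call in at least 1 alternative and 0 changed sign. Depth set the precision: the SE of the log2 fold change was 0.32 for Gpr63, at 3.04 CPM or less, and 0.03 for Fasn, at 727 CPM or more.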

Other observations

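Chromosomes 14 and X had fewer rises than the other chromosomes among abundant genes (mean log2 CPM of 3 or more). On chromosome 14, which holds Mettl3, 49 of 361 genes rose and 63 fell (median -0.01), and on chromosome X 32 of 321 rose and 53 fell (median 0.004). Medians on the other chromosomes ran from 0.03 to 0.08. These chromosomes were singled out after their values were seen, and no test was made.

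Genes with more exons fell more often. Of the 2443 abundant protein-coding genes with the fewest exons 578 rose and 126 fell, and of the 2443 with the most 507 rose and 354 fell. In the groups between, of 2442 genes each, 484 and 459 rose and 147 and 233 fell. By density of GGACT, the letters of a common m6A context, in exons, 415 rose and 260 fell in the lowest 2443 and 572 rose and 161 fell in the highest 2443. GC content differs along with these properties, and its part was not tested.

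The predicted genes Gm21738 and Gm10801, chosen after their values were seen, fell in Mettl3 CKO and rose in Mettl14 CKO. Gm21738 had 280 and 274 CPM in Control and 157 and 145 CPM in CKO, and Gm10801 had 172 and 165 CPM in Control and 100 and 101 in CKO. Whether their reads also match other copies in the genome was not tested.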
